A study of Bos taurus with 8 samples.

Results

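A set of 46 genes of ribosome biogenesis and of the nucleolus was followed in RNA sequencing of corpora lutea (CL), the progesterone-secreting glands that form in the ovary after ovulation. They are the rows of a table of 13861 genes whose symbol is 1 of 50 listed names, and 46 of these names were found, each on 1 row. TCOF1, WDR36, GNL3 and DDX21 are not analysed here. The CL were collected on day 17 after estrus from 8 Holstein heifers: 4 were pregnant after breeding, and 4 were left unbred and were in the estrous cycle (cyclic). Each CL came from a separate animal, the pregnant ones numbered 1, 2, 4 and 5 and the cyclic ones 1 to 4, and no age or genotype is given for either group. Luteal tissue was taken whole, so each value is an average over steroidogenic, endothelial, immune and other cells.

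Ribosomes are built in the nucleolus. RNA polymerase I transcribes a long precursor of ribosomal RNA (rRNA), small nucleolar ribonucleoproteins (snoRNP) guide its chemical modification, and large sets of assembly factors cut and fold it into the precursors of the small and the large subunit. Many of these genes are known targets of MYC, a transcription factor of cell growth, which is why the members were also set beside MYC. Steroidogenic luteal cells are large, make much protein and divide little, and the CL of early pregnancy is kept while that of the cycle is about to regress.

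Values are normalized counts: the reads of a gene were scaled by a single factor for each CL. Reads per CL were recovered from the normalized counts and summed over the 13861 genes, so they are not all reads sequenced. They were 43654655 to 48294165 in pregnancy (median 46903768) and 42770725 to 47076454 in the estrous cycle (median 45879907). Of the members, 45 had a mean of at least 50 normalized counts over the 8 CL. The exception was UBTF, with 14 to 27 reads per CL, while the lowest value of any other member was 122 reads. The steroidogenic markers, 8 of 8 in the table, summed to 1673970 to 2396328 normalized counts in pregnancy and 1540690 to 1843449 in the estrous cycle, and the lowest value of any of them in a CL was 12126, for the luteinizing hormone receptor LHCGR. Normalized counts are not divided by gene length, so they are compared between CL and not between genes.

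Most of the members had a lower mean in CL of pregnancy than in CL of the estrous cycle, by a small amount. Of the 46 members, 39 (84.8%) had a log2 fold change below 0, and 7 were above 0, while 49.9% of all 13861 genes were below 0. The median log2 fold change was -0.19, which is a level 12.3% lower, and the values ran from -0.53 for PPAN to 0.34 for UBTF. Over all genes the median was 0.00. Fold changes are differences in log2(normalized count + 1), pregnancy minus estrous cycle. In whole tissue, fewer cells of a type and less RNA per cell cannot be told apart.

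No member passed limma's test with Benjamini-Hochberg adjustment over all genes (0 of 46, adjusted p from 0.431 to 0.984, where 0.0216% of all genes passed at an adjusted p under 0.05). On reads recovered from the table, edgeR and limma-voom also called 0 of 46, beside 0.00721% of all genes in each, and DESeq2 called 2, NOP58 (adjusted p = 0.0131) and PPAN (adjusted p = 0.0241), where it called 0.685% of all genes. At an unadjusted limma p under 0.05, 12 members (26.1%) were lower in pregnancy and 0 were higher, beside 3.85% and 3.66% of all genes. In 4 members (8.70%) every pregnant CL was below every cyclic CL, beside 2.27% of all genes, and in 0 members was every pregnant CL above, beside 2.03%. The count of 12 was 4 without cyclic replicate 1 and also 4 without cyclic replicate 2, 5 without pregnant replicate 1, and 6 without pregnant replicate 4. It was 8 without cyclic replicate 3, 15 without pregnant replicate 2 and 16 without cyclic replicate 4. The count of 4 with no overlap was 15 without cyclic replicate 4, 13 without pregnant replicate 2 and 8 without pregnant replicate 5. With a CL left out, no overlap is easier to reach, so the 2.27% of all genes is not the base of these counts. The shares of all genes with a CL left out are not given here. The members deviated together from CL to CL, so these counts do not rest on 46 independent genes.

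**Figure D1:**
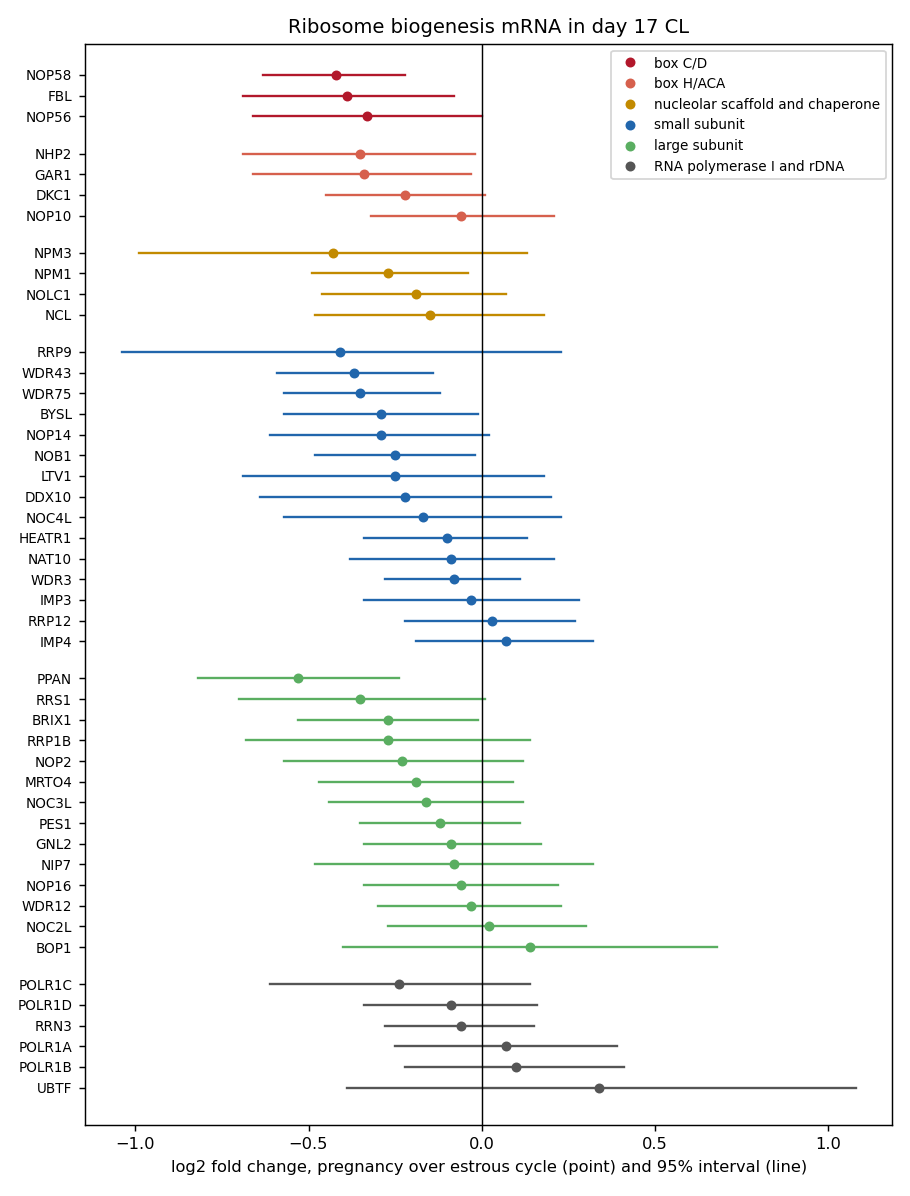
Log2 fold change of each of the 46 members (x axis, pregnancy over estrous cycle; point, with the limma 95% interval as a line), grouped by role on the y axis and ordered by size within a role, n = 4 CL per group. All members of the snoRNP and nucleolar scaffold groups lie left of 0, and the 6 genes of RNA polymerase I and its factors lie on both sides.

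Markers of T and NK cells ran in the opposite direction. All 6 of 6 had log2 fold changes above 0 (median 0.50), 3 of them at an unadjusted limma p under 0.05 and 0 past adjustment. Their summed level was 2347, 2379, 3042 and 2300 normalized counts in pregnant replicates 1, 2, 4 and 5, against 1301, 1624, 2316 and 2200 in cyclic replicates 1 to 4. The groups overlapped only between pregnant replicate 5 and cyclic replicate 3. The fibroblast markers, 6 of 6 in the table, were all below 0 (median -0.17) and summed to 620910 to 800220 normalized counts in pregnancy and 655819 to 1017374 in the estrous cycle. Of the 8 steroidogenic markers, 6 were above 0 and 2 below (median 0.20), with 0 of them at an unadjusted limma p under 0.05. The part of any of these marker lists in the result was not tested.

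The box C/D snoRNP proteins had the most negative median of the 6 role groups (-0.39), and all 3 were lower at an unadjusted limma p under 0.05. NOP58 (ENSBTAG00000005517), part of the core scaffold of these particles, had 2683, 2830, 2496 and 2919 normalized counts in pregnant replicates 1, 2, 4 and 5, against 4065, 3698, 3569 and 3337 in cyclic replicates 1 to 4. The groups did not overlap, and pregnant replicate 5, the highest of its group, was below cyclic replicate 4, the lowest of the other. The means were 2732 ± 185 in pregnancy and 3667 ± 305 in the estrous cycle (SD, n = 4 each), with a log2 fold change of -0.42 (adjusted p = 0.431 in limma, SE 0.09). The exact two-sided permutation p was 0.0286, the smallest that 70 labelings allow.

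FBL, fibrillarin, the methyltransferase of the same particles, had 2309, 2763, 2367 and 2923 normalized counts in pregnant replicates 1, 2, 4 and 5, against 3897, 3864, 3208 and 2673 in cyclic replicates 1 to 4. Here the groups overlapped through cyclic replicate 4, which was below 2 of the pregnant CL. The log2 fold change was -0.39 (adjusted p = 0.598 in limma, SE 0.14; exact two-sided permutation p = 0.0857). NOP56, the partner of NOP58, averaged 3173 ± 343.5 in pregnancy and 4031 ± 769 in the estrous cycle (SD, n = 4 each), and its log2 fold change was -0.33 (adjusted p = 0.660 in limma, SE 0.15).

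The box H/ACA particles convert uridine to pseudouridine. All 4 of their proteins were below 0 (median -0.28), and 2 were lower at an unadjusted limma p under 0.05. GAR1 had 718.5, 811.1, 666.1 and 768.4 normalized counts in pregnant replicates 1, 2, 4 and 5, against 1132, 1033, 836.2 and 789.0 in cyclic replicates 1 to 4. Only pregnant replicate 2 and cyclic replicate 4 crossed, and the log2 fold change was -0.34 (adjusted p = 0.628 in limma, SE 0.14). NHP2 had 962.1, 1004, 899.7 and 1109 in pregnancy, against 1578, 1422, 1130 and 1017 in the estrous cycle, in the same order of replicates. Its overlap was again with cyclic replicate 4, and the log2 fold change was -0.35 (adjusted p = 0.636 in limma, SE 0.15). For DKC1, the pseudouridine synthase itself, the means were 3467 ± 358 and 4026 ± 372 in the pregnant and the cyclic CL (SD, n = 4 each; log2 fold change -0.22, adjusted p = 0.668 in limma, SE 0.10). NOP10, the smallest partner, had 5094, 5759, 5309 and 6224 in pregnant CL and 6648, 6312, 4712 and 5715 in cyclic CL. Cyclic replicates 1 and 2 were above all pregnant CL, cyclic replicate 3 was below all of them, and cyclic replicate 4 lay among them. The log2 fold change of NOP10 was -0.06, with a 95% interval of -0.32 to 0.21.

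Among the nucleolar scaffold and chaperone genes, all 4 were below 0 (median -0.23). NPM1 (ENSBTAG00000015316), nucleophosmin, had 13440, 13050, 13091 and 12886 normalized counts in pregnant replicates 1, 2, 4 and 5, against 18280, 16881, 14891 and 13449 in cyclic replicates 1 to 4. The pregnant CL lay close together (CV 1.77%) and the cyclic CL were spread (CV 13.4%), and the absence of overlap rested on the small gap between pregnant replicate 1 and cyclic replicate 4. The log2 fold change was -0.27 (adjusted p = 0.614 in limma, SE 0.10; exact two-sided permutation p = 0.0286). NCL, nucleolin, which binds the rRNA precursor, had 11862, 15031, 13930 and 12735 in pregnancy, against 19616, 15318, 13230 and 12061 in the estrous cycle. Cyclic replicates 1 and 2 were above all pregnant CL, and cyclic replicates 3 and 4 lay among them. The log2 fold change of NCL was -0.15 (adjusted p = 0.828 in limma, SE 0.15), and it was -0.01 without cyclic replicate 1. NPM3, of the same family as NPM1, and NOLC1, a chaperone of snoRNP, had log2 fold changes of -0.43 (SE 0.25) and -0.19 (SE 0.12), with limma adjusted p of 0.714 and 0.728.

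**Figure D2:**
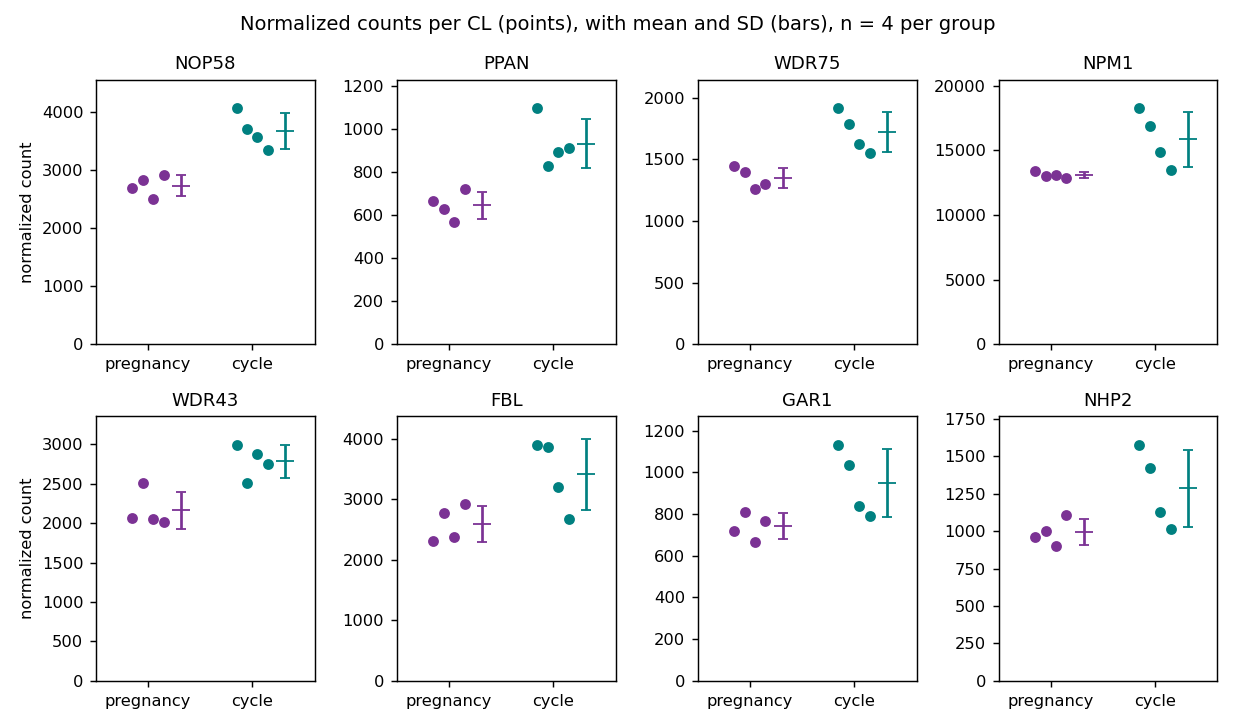
Normalized counts (y axis, from 0) of 8 members in each CL (points), with the mean and SD of each group beside them, pregnancy on the left and estrous cycle on the right, n = 4 each. NOP58, PPAN, WDR75 and NPM1 have no overlap between the groups, and in WDR43, FBL, GAR1 and NHP2 the groups cross.

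Of the 15 genes of small subunit assembly, 13 were below 0 (median -0.22) and 4 were lower at an unadjusted limma p under 0.05. WDR43 and WDR75 belong to the complex that first binds the rRNA precursor. WDR75 (ENSBTAG00000003002) had 1443, 1394, 1259 and 1299 normalized counts in pregnant replicates 1, 2, 4 and 5, against 1917, 1787, 1628 and 1554 in cyclic replicates 1 to 4. All pregnant CL were below all cyclic CL, and the log2 fold change was -0.35 (adjusted p = 0.538 in limma, SE 0.10). WDR43 had 2065, 2509, 2055 and 2012 in pregnancy, against 2993, 2506, 2877 and 2751 in the estrous cycle. Pregnant replicate 2 stood apart from the other pregnant CL and was level with cyclic replicate 2, and the log2 fold change was -0.37 (adjusted p = 0.504 in limma, SE 0.10; exact two-sided permutation p = 0.0571).

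NOB1, the nuclease that makes the last cut at the end of the small subunit rRNA, had 1470, 1836, 1739 and 1740 normalized counts in pregnancy, against 2171, 2024, 2075 and 1805 in the estrous cycle. Pregnant replicate 2 was above cyclic replicate 4, and otherwise the groups were apart (log2 fold change -0.25, adjusted p = 0.626 in limma, SE 0.10). BYSL, bystin, needed for late steps of the small subunit, had 1055, 1193, 943.9 and 996.3 in pregnant CL, against 1503, 1236, 1299 and 1100 in cyclic CL. The crossing was between the same CL as for NOB1, and the log2 fold change was -0.29 (adjusted p = 0.642 in limma, SE 0.12).

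The remaining 11 small subunit genes had log2 fold changes from -0.41 to 0.07. RRP9, a protein of the U3 particle, averaged 412.5 ± 194.5 in pregnancy and 507.3 ± 48.2 in the estrous cycle (SD, n = 4 each), with a CV of 47.2% in pregnancy, the widest of any member. IMP4, another U3 partner, and RRP12, an export factor, were at 0.07 (95% interval -0.19 to 0.32) and 0.03 (-0.22 to 0.27). HEATR1, WDR3 and NAT10, which act on the early precursor, were at -0.10, -0.08 and -0.09, with limma adjusted p from 0.832 to 0.890.

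Of the 14 large subunit genes, 12 were below 0 (median -0.14) and 2 were lower at an unadjusted limma p under 0.05. PPAN (ENSBTAG00000012745), whose yeast homolog is needed to make the large subunit, had 665.7, 628.0, 568.5 and 720.1 normalized counts in pregnant replicates 1, 2, 4 and 5, against 1099, 828.7, 895.5 and 912.7 in cyclic replicates 1 to 4. Each pregnant CL was below each cyclic CL, with cyclic replicate 1 the highest. The means were 646 ± 63.8 in pregnancy and 934 ± 116 in the estrous cycle (SD, n = 4 each), and the log2 fold change was -0.53 (adjusted p = 0.485 in limma, SE 0.13; exact two-sided permutation p = 0.0286). The description of this row in the table names a readthrough transcript of PPAN and P2RY11, so reads of both may be in it. Without PPAN the median of the members was also -0.19.

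BRIX1, a large subunit assembly factor, averaged 912 ± 108 in pregnancy and 1095 ± 85.7 in the estrous cycle (SD, n = 4 each; log2 fold change -0.27, adjusted p = 0.649 in limma, SE 0.12). RRP1B, among the members with the fewest reads, had 134.3, 134.4, 112.2 and 150.5 normalized counts in pregnant CL, against 156.5, 172.9, 160.1 and 150.2 in cyclic CL. Pregnant replicate 5 and cyclic replicate 4 were level, and the log2 fold change was -0.27 (adjusted p = 0.743 in limma, SE 0.18). PES1, BOP1 and WDR12 form 1 complex (PeBoW) and did not share a sign, at -0.12, 0.14 and -0.03. BOP1 had 200.5, 280.7, 184.0 and 172.0 in pregnancy, against 267.4, 174.8, 178.9 and 144.3 in the estrous cycle. Its highest values were pregnant replicate 2 and cyclic replicate 1, the 95% interval was -0.40 to 0.68, and without pregnant replicate 2 the log2 fold change was -0.01. The other 8 large subunit genes ran from -0.35 for RRS1, which helps to place the small rRNA of the large subunit, to 0.02 for NOC2L, with limma adjusted p from 0.663 to 0.984.

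The genes of RNA polymerase I and of its transcription were the only role group with a median at 0.00, with 3 of 6 below 0 and 0 at an unadjusted limma p under 0.05. POLR1A and POLR1B, the catalytic subunits, were at 0.07 (95% interval -0.25 to 0.39) and 0.10 (-0.22 to 0.41). POLR1C and POLR1D, which RNA polymerase III also uses, were at -0.24 (-0.61 to 0.14) and -0.09 (-0.34 to 0.16), and RRN3, the initiation factor, at -0.06 (-0.28 to 0.15). UBTF, which binds the rRNA genes, had 20.1, 22.9, 24.8 and 15.1 normalized counts in pregnant CL, against 15.2, 13.5, 14.8 and 20.6 in cyclic CL. Pregnant replicate 5 was low and cyclic replicate 4 high within their groups. Its log2 fold change of 0.34 had a 95% interval of -0.39 to 1.08 at this depth. UBTF, at 14 to 27 reads per CL, counts in the median and the even split of this group. Neither was computed without UBTF. Whether the polymerase group differs from the other groups was not tested.

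For each CL, a member score was computed as the mean over the 46 members of log2(normalized count + 1) minus the 8-CL mean of the gene. The score was -0.156, 0.077, -0.215 and -0.055 in pregnant replicates 1, 2, 4 and 5, against 0.278, 0.118, 0.030 and -0.077 in cyclic replicates 1 to 4. The group means were -0.087 ± 0.128 in pregnancy and 0.087 ± 0.150 in the estrous cycle (SD, n = 4 each), a difference of -0.175 that was -0.111 without cyclic replicate 1. The groups overlapped: cyclic replicate 4 lay among the pregnant CL and pregnant replicate 2 among the cyclic CL. Over all genes the same score stayed between -0.036 and 0.027.

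Counts of members show the same order of CL. In pregnant replicate 4, 43 of the 46 members were below their own mean and 22 had their lowest value, while in cyclic replicate 1 only 1 was below its mean and 28 had their highest value. Of the other CL, pregnant replicate 1 had 38 members below their mean, pregnant replicate 5 had 32 and pregnant replicate 2 had 17, against 9, 17 and 34 in cyclic replicates 2, 3 and 4. The T and NK cell markers were lowest in cyclic replicate 1, where the score was highest, and highest in pregnant replicate 4, where it was lowest. As a description over 8 CL that share these 2 ends, the score and the log2 of the marker sum had a Pearson r of -0.88 and a Spearman rho of -0.67, with r = -0.81 for deviations from the group means and -0.59 without cyclic replicates 1 and 2. The same r was -0.65 for the macrophage markers (5 of 5 in the table, 4 below 0, median log2 fold change -0.18) and -0.52 for reads per CL. It was -0.12 for the markers of dividing cells (4 of 7 in the table), although these were all below 0, with a median log2 fold change of -0.72. Their sums were 374 to 837 normalized counts in pregnancy and 537 to 1653 in the estrous cycle, and the part of these markers in the result was not tested. Scored as the members were, T and NK markers had r = -0.91 with the member score, macrophage markers -0.60 and dividing cell markers -0.02. The steroidogenic list had -0.17, the endothelial list -0.21, the fibroblast list -0.02, and the pericyte and smooth muscle list 0.37. The T and NK list thus had the strongest r of the marker lists, and the share of all genes with such an r is not given here.

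**Figure D3:**
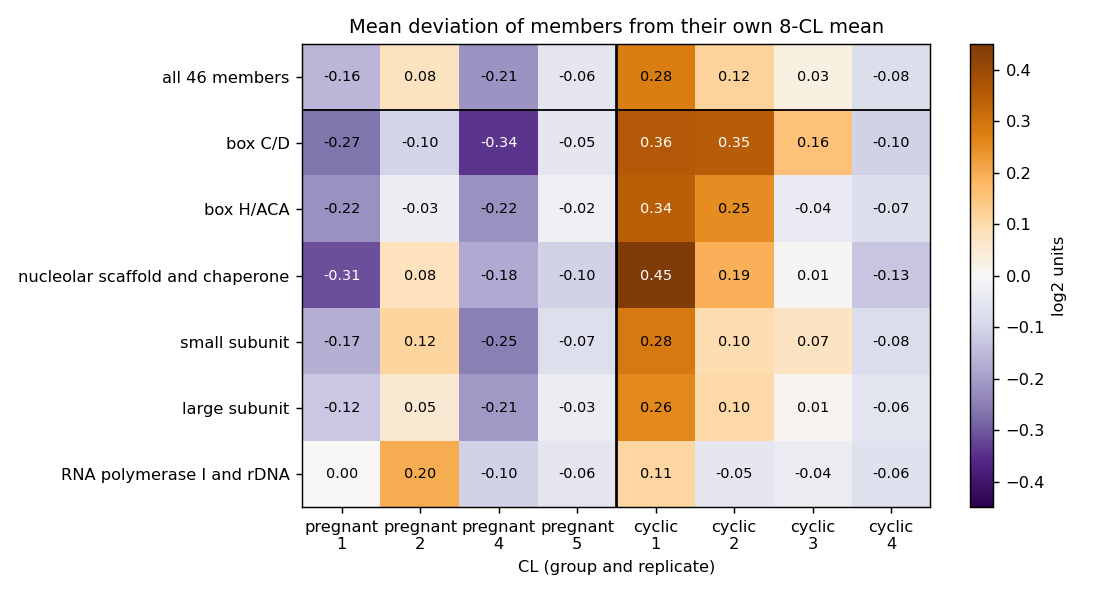
Mean deviation of members from their own 8-CL mean, in log2 units (color and printed value), for all 46 members and for each role group (rows) in each CL (columns), pregnant CL left of the line and cyclic CL right of it. Cyclic replicate 1 is highest for all members and pregnant replicate 4 lowest, and in the RNA polymerase I row the highest value is pregnant replicate 2.

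The members varied together. Across the 8 CL, the correlation of a member with the mean of the other members had a median of 0.78, was above 0 for 45 of 46 and above 0.7 for 29, while genes that are not members had a median of -0.01 with the member score, and 5.10% were above 0.7. For deviations from the group means the median over members was 0.73, so the members also varied together among CL of 1 group. NOLC1 (0.97) and GAR1 (0.95) followed the others most closely and UBTF (-0.63) least. These correlations are descriptions over 8 CL. Between CL of 1 group, the median CV over members was 11.1% in pregnancy and 12.6% in the estrous cycle. It was 15.04% and 15.13% for the 11636 genes with means from 18.39 to 14496, the range of the members. That range is wide, so the comparison is not matched on level.

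MYC (ENSBTAG00000008409) had 1837, 1568, 2016 and 2211 normalized counts in pregnant replicates 1, 2, 4 and 5, against 2028, 3923, 3078 and 3054 in cyclic replicates 1 to 4. Cyclic replicate 1 lay among the pregnant CL, and the other 3 cyclic CL were above all of them. The log2 fold change was -0.64 (adjusted p = 0.542 in limma, SE 0.19, with an exact two-sided permutation p of 0.0571). On recovered reads, the adjusted p of MYC was 0.4996 in edgeR, 0.566 in limma-voom and 0.0905 in DESeq2. MYC therefore passed in none of these tools, with the smallest adjusted p in DESeq2. The paper describes MYC mRNA as more abundant in cyclic than in pregnant CL, which is the direction seen here.

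The relation of the member score to MYC from CL to CL was weak and depended on single CL. Cyclic replicate 1 had the highest score with the lowest MYC of its group, and pregnant replicate 2 had the highest score of the pregnant CL with the lowest MYC of all. Over the 8 CL, given as a description, Pearson r was 0.15 and Spearman rho 0.29. It was -0.18 without cyclic replicates 2 and 3, the 2 farthest from the median of MYC, -0.07 without cyclic replicate 2 alone, 0.41 without cyclic replicate 1, 0.30 without pregnant replicate 2, and -0.56 for deviations from the group means. Of the 46 single members, 33 had an r with MYC above 0, beside 50.2% of all genes (median 0.15, all genes 0.00). At r above 0.7 there were 0 members, beside 4.42% of all genes. For deviations from the group means, 3 of 46 were above 0 (median -0.39, all genes 0.00), and the share of all genes above 0 is not given here.

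**Figure D4:**
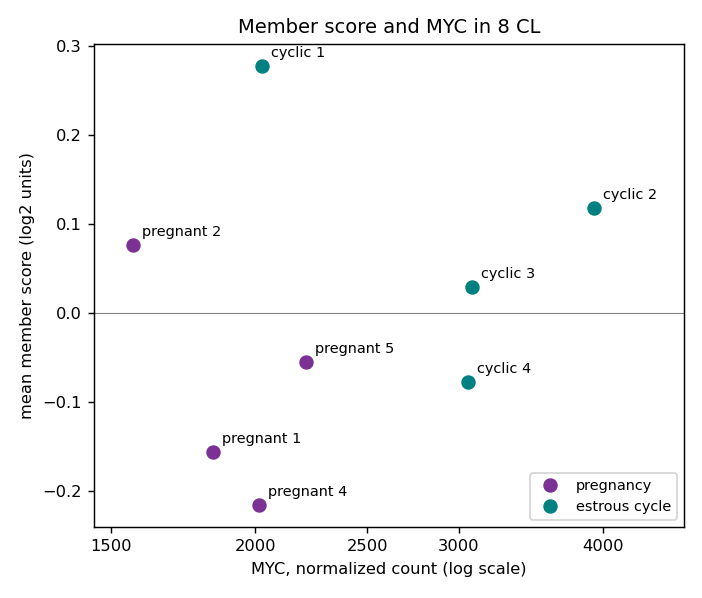
Member score (y axis, log2 units) against MYC (x axis, normalized count, log scale) in 8 CL, pregnant in purple and cyclic in teal. Cyclic replicate 1 has a score of 0.278 at 2028 normalized counts of MYC, and within each group the CL with the lowest MYC has the highest score.

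Other genes of ribosome biogenesis, listed by function, gave a similar picture with smaller values. Of 126 listed, 111 were in the table. Of these, 92 (82.9%) were below 0, with a median of -0.13. At an unadjusted limma p under 0.05, 8 (7.21%) were lower and 0 higher in pregnancy, beside 3.85% and 3.66% of all genes. None passed limma (0 of 111), edgeR or limma-voom after adjustment, and DESeq2 called 1, DDX52 (adjusted p = 0.0333), beside 0.685% of all genes. DDX52, an RNA helicase of the small subunit, had 1805, 1934, 1861 and 2024 normalized counts in pregnant replicates 1, 2, 4 and 5, against 2204, 2450, 2448 and 2370 in cyclic replicates 1 to 4. These groups did not overlap, nor did those of UTP3 and RIOK2 (3 of 111, 2.70%, beside 2.27% of all genes). The log2 fold change of DDX52 was -0.31 (adjusted p = 0.485 in limma, SE 0.08).

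The next smallest p-values on the lower side belonged to NIFK (-0.41), RSL1D1 (-0.39), MPHOSPH10 (-0.33), UTP3 (-0.50) and RIOK2 (-0.21), with limma adjusted p from 0.582 to 0.635. On the higher side they belonged to SHQ1 (0.22), WDR18 (0.17), BUD23 (0.25), POLR1E (0.28), RCL1 (0.13) and PWP2 (0.21), with limma adjusted p from 0.714 to 0.846. The row taken for BUD23, listed under the older symbol WBSCR22, had a mean of 117024 normalized counts, and whether all of these reads are of BUD23 was not settled. The count of 8 lower genes was 4 without cyclic replicate 1, 5 without cyclic replicate 3 and also 5 without pregnant replicate 1, 3 without pregnant replicate 4, 15 without cyclic replicate 4, 13 without pregnant replicate 2 and 16 without pregnant replicate 5. For these counts with a CL left out, the shares of all genes are not given here. Over the 8 CL, the median correlation of the other ribosome biogenesis genes with the member score was 0.60.

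**Figure D5:**
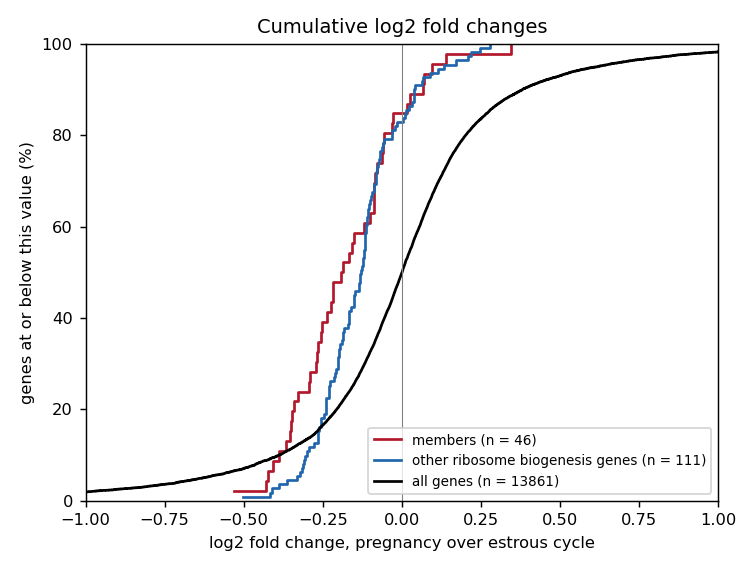
Share of genes (y axis, percent) at or below each log2 fold change (x axis, pregnancy over estrous cycle, shown from -1 to 1) for the 46 members, the 111 other ribosome biogenesis genes and all 13861 genes. At 0 the curves stand at 84.8%, 82.9% and 49.9%.

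Some members carry genes of the snoRNA that the snoRNP proteins bind. In the RefSeq gene table of the bovine assembly ARS-UCD2.0, 6 of the 46 members (13.0%) hold at least 1 snoRNA gene within their bounds, against 206 of 11571 matched symbols of the table (1.78%). They are NOP58 with 4 snoRNA genes, NOP56 with 5, WDR43 and NCL with 3 each, PPAN with 2 and POLR1A with 1. Of the 6, 5 were below 0, with a median log2 fold change of -0.35, against -0.18 for the other members. Among 200 rows that are not members and hold a snoRNA gene, 58.0% were below 0 and the median was -0.04. The same table places other genes over some members, among them IDH3B over NOP56, WWP2 over NOB1, PARP3 over RRP9 and XPO5 over POLR1C. It also places a protein-coding gene, LOC101907697, over UBTF. The libraries kept the strand, but whether counting used it is not given in the sources used here, so the values of these members are uncertain to that extent.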

How the data were processed

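RNA of 8 CL was sequenced by the authors as strand-specific libraries of total RNA. The deposited table holds signal, which are normalized counts made by the authors by dividing reads by 1 factor per CL, and the authors' mean of each group (2 columns, not used). The aligner, the counting program, the build and the gene models: not given in the sources used here. Dividing each CL by the value of 1 read gave whole reads (within 0.01) for 99.9% of values.

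The filter was a mean of 1 or more, which all 13861 genes passed. The values were tested as log2(value + 1) in limma 3.58.1 (trend, R 4.3.3) with all 8 CL and no covariate, Benjamini-Hochberg adjusted over all genes, threshold 0.05. Alternatives were no filter, a filter at a mean of 50, other pseudocounts (0.5, 0.1 and 10), quantile and TMM scaling, edgeR 4.0.16, DESeq2 1.42.0 and limma-voom on recovered reads, each CL left out, and a replicate block; leaving out PPAN was added after seeing the data. The fits were tested first on simulated data whose planted changes were all larger than that of any member here. That test therefore does not cover changes of the size seen in the members. Summaries were made in Python 3.11.15 with pandas 2.3.3 and scipy 1.17.1, and figures with matplotlib 3.10.9.

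Values in every CL are given for members whose groups did not overlap, the 10 with the smallest p, and the 3 with the highest and the 3 with the lowest mean; of the other ribosome biogenesis genes, 6 in each direction are named, and other genes were chosen after their values were seen. The members and lists were chosen with earlier results of these data known. A search of promoters for the MYC motif was planned and not run.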

Additional observations from a re-analysis of the deposited data

Results flagged for a closer look

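In 94 groups of 4 CL (the members and MYC in each group), the highest or lowest CL was compared with the rest by Dixon's criterion, which chance alone meets in about 1 of 20 groups. It was met 4 times. WDR43 was 2509 normalized counts in pregnant replicate 2, beside 2012 to 2065 in the other pregnant CL, and NOP14, a small subunit factor, was 1678 in the same CL, beside 1387 to 1435. In cyclic replicate 4, RRP9 was 435.7 normalized counts, beside 524.5 to 540.2 in the other cyclic CL, and NOC4L, a partner of NOP14, was 183.5, beside 229.9 to 238.2.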

How the results depend on the processing

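No member passed in limma under any of the filters, pseudocounts, scalings, left-out CL or the replicate block. DESeq2 on recovered reads called 2 (NOP58 and PPAN), and the cause of the difference between tools was not tested. Leaving out each CL in turn gave 4 to 16 members lower at an unadjusted p under 0.05, 4 to 15 with no overlap, 34 to 44 below 0, a median of -0.25 to -0.13 and a score difference of -0.229 to -0.111. With each CL left out, the other ribosome biogenesis genes had 3 to 16 lower and 0 to 1 higher. With the replicate block they had 13 lower. For the counts with a CL left out, the shares of all genes are not given here, and no overlap is easier to reach with fewer CL. The correlation of the score with MYC was -0.07 to 0.41 with a CL left out, -0.18 without the 2 CL farthest from the median of MYC, and -0.56 for deviations from the group means. BOP1 ran from -0.01 to 0.31 and NOP10 from -0.15 to 0.01 when a CL was left out.

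The deviations of same-numbered CL correlated at 0.03, -0.08 and 0.03, and 0 of 3 correlated best with their own number. Different numbers gave -0.16 to 0.26, so these few values cannot decide whether CL were paired. With the replicate block, 9 members were lower at an unadjusted p under 0.05, and the median was -0.21. Pregnant replicate 5 and cyclic replicate 3 were each alone in their block. The group difference in that fit therefore rests on the CL numbered 1, 2 and 4. With 4 CL in each group, the SE of single members ran from 0.09 to 0.33 on the log2 scale, with the widest 95% intervals in RRP9 (-1.04 to 0.23) and UBTF (-0.39 to 1.08).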

Other observations

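The row listed under WBSCR22, the older symbol of the rRNA methyltransferase BUD23, had 124706, 128543, 122459 and 127287 normalized counts in pregnant replicates 1, 2, 4 and 5, against 97337, 135876, 77359 and 122622 in cyclic replicates 1 to 4. The pregnant CL lay close together, and cyclic replicates 1 and 3 were below all of them (log2 fold change 0.25, SE 0.17, limma adjusted p = 0.743). Whether all of its reads are of BUD23 was not settled.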
